A study of Mus musculus with 10 samples.

Results

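The HoxA homeobox cluster on chromosome 6 and its cofactor gene Meis1 on chromosome 11 were followed through their promoter contacts in mouse bone marrow cells. The genes were Meis1, Hoxa2, Hoxa3, Hoxa4, Hoxa5, Hoxa7, Hoxa10, Hoxa11 and Hoxa13. A gene was taken to be measured where a captured fragment with at least 1 listed contact, called a bait, held its start or its end. Of the 9 genes, 8 had such a bait; Hoxa4 had none. The 8 genes lay on 7 baits with 47 listed contacts, out of 12186 baits and 88624 contacts listed for the stem and progenitor cells.

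Promoter-capture Hi-C ligates crosslinked DNA fragments that lie close to each other in the nucleus and then enriches ligation products that contain a promoter. The stem and progenitor libraries came from lineage-negative bone marrow of C57BL/6 mice of 4 genotypes, called HSPCs here. DM cells were Npm1flox-cA/+;Flt3ITD/+;Mx1-Cre+, Flt3-ITD cells were Flt3ITD/+, Npm1c cells were Npm1flox-cA/+;Mx1-Cre+, and WT cells were wild-type. A further group was WT bone marrow neutrophils, the differentiated cells set against WT HSPCs. Each of the 5 groups had 2 libraries, described by the submitters as biological duplicates; age, sex and pooling of the mice are not given in the sources used here. Mx1-Cre is a recombinase driven by an interferon-inducible promoter that is active in blood and other tissues, and the genotypes of the Flt3-ITD and WT groups name no Cre. Npm1c is a leukaemia mutation that sends nucleophosmin to the cytoplasm, and the internal tandem duplication of Flt3 keeps this cytokine receptor active.

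Hox genes encode homeodomain transcription factors that sit side by side in clusters. In blood formation the HoxA genes are active in stem and progenitor cells and are turned down as cells mature. Meis1 encodes a homeodomain protein of the TALE class that binds DNA together with Hox and Pbx proteins, and high expression of HOXA genes and MEIS1 marks human acute myeloid leukaemia with mutated NPM1.

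The baits were HindIII fragments of the mm10 build. The Meis1 bait, chr11:19017037-19021316, held the 5′ end of Meis1. The Hoxa2 bait, chr6:52162863-52166906, and the Hoxa5 bait, chr6:52201567-52207513, held those promoters; the Hoxa5 bait also held an end of Hoxa6. A fragment at chr6:52213061-52222146 held all of Hoxa7 and the first 7 bases of Hoxa3, so its contacts cannot be assigned to either gene alone. A further fragment, chr6:52240053-52242369, held the Hoxa10 promoter and the 3′ end of Hoxa11. The Hoxa11 promoter lay on chr6:52243161-52253347 and the Hoxa13 promoter on chr6:52259630-52266779. All 9 genes are transcribed towards lower coordinates.

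Of the 9 genes, 8 matched a promoter window in the RefSeq table of build GRCm38.p6, and the 250 bases before the annotated start are shown for the genes whose contacts are described most closely below, together with Hoxa2, the promoter whose window held both motifs searched for. Capitals mark matches to TGACAG, the core recognised by Meis proteins, or to TGATNNAT, a core for Pbx and Hox proteins together, each sought on both strands. The lines are Meis1, chr11:19018970-19019219, then Hoxa2, chr6:52164832-52165081, Hoxa7, chr6:52218574-52218823, Hoxa10, chr6:52240855-52241104, and Hoxa11, chr6:52245811-52246060, all on the minus strand. The Meis1 window precedes the start given in that table and lies inside the longest annotated Meis1 gene body.
Meis1: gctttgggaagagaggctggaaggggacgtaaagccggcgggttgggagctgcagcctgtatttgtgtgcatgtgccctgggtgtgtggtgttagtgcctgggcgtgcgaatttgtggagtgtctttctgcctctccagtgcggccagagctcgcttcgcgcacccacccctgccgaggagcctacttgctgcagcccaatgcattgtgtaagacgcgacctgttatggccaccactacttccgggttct
Hoxa2: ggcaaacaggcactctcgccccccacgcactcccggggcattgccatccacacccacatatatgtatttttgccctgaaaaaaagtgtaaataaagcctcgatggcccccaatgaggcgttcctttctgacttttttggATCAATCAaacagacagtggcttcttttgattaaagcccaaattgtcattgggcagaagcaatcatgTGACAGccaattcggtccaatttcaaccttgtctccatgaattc
Hoxa7: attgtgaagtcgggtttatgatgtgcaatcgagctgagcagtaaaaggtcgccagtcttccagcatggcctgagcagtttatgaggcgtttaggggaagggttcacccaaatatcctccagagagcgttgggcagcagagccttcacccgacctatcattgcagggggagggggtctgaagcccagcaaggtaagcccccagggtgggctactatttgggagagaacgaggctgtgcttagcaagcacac
Hoxa10: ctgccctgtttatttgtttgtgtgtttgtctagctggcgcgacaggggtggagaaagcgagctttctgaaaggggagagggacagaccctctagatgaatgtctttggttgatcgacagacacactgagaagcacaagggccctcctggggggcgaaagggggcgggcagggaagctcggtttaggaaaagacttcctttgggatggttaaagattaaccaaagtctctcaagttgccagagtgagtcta
Hoxa11: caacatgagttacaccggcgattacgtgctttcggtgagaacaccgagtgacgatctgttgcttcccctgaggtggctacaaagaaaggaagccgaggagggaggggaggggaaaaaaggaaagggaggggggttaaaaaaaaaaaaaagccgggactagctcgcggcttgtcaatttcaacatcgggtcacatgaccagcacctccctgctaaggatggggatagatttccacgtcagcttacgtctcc
TGACAG was found in the windows of 2 of the 8 genes, Hoxa2 and Hoxa3, and in 16% of all 27025 windows of this length. TGATNNAT was found in 1, Hoxa2, on the opposite strand, and in 7.91% of all windows. A match describes only these letters in this window.

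Each contact carried a deposited interaction score in every library, a number that is never negative and is higher for a stronger contact. A contact was listed for HSPCs where it reached 5 in both libraries of at least 1 genotype. A contact brought in by a mutant therefore had to be high in that mutant, and counts over all 47 contacts are descriptions. In bulk libraries like these, a contact made in fewer cells and a weaker contact per cell cannot be told apart. Of the 47 contacts, 29 reached 5 in both DM libraries (61.7%), 18 in both Flt3-ITD libraries (38.3%), 26 in both Npm1c libraries (55.3%) and 7 in both WT libraries (14.9%). Over all listed contacts the shares were 48.8% in DM, 51.2% in Flt3-ITD, 41.8% in Npm1c and 34.9% in WT HSPCs. The HoxA and Meis1 share was thus above that of all contacts in DM and Npm1c cells and below it in Flt3-ITD and WT cells. Only 3 of the 47 contacts reached 5 in all 4 genotypes.

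**Figure D1:**
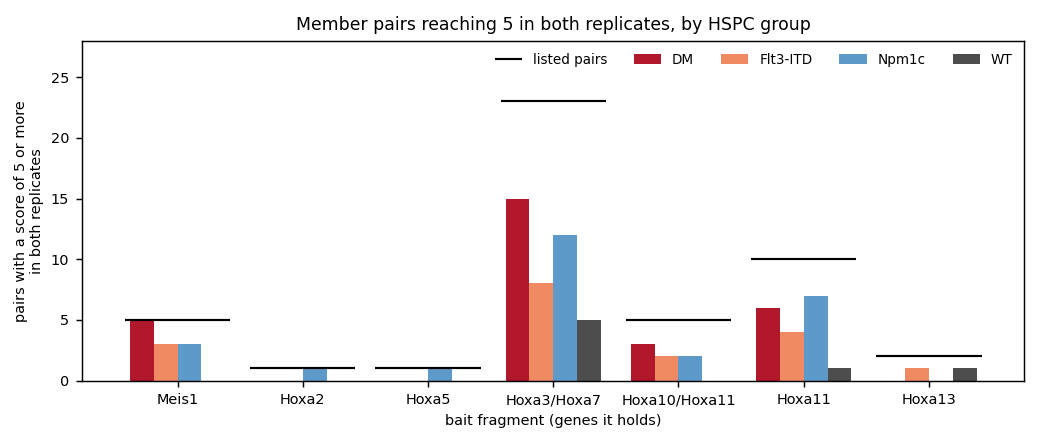
Number of contacts (y axis) with a score of 5 or more in both libraries of a genotype, for each of the 7 baits (x axis); coloured bars are DM, Flt3-ITD, Npm1c and WT HSPCs, and black lines give the number of listed contacts. The Meis1 bait has 5 such contacts in DM and 0 in WT cells, and the Hoxa3/Hoxa7 bait has 15 in DM and 5 in WT cells.

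The 2 WT HSPC libraries differed at these loci. The median score over the 47 contacts was 6.66 and 7.34 in the DM libraries, 5.14 and 6.35 in the Flt3-ITD libraries, 5.72 and 6.41 in the Npm1c libraries, and 4.62 in WT replicate 1 against 1.99 in WT replicate 2. Over all contacts the medians ran from 4.75 to 5.74 across the 8 libraries, with WT replicate 2 the lowest. WT replicate 2 is therefore low at these loci beyond its position over all contacts, and results against WT are also given with WT replicate 1 alone. The contact lists do not measure RNA, so the labelled cell types could not be checked by expression. Of 10 stem cell genes 7 had a bait in the HSPC list and 4 in the neutrophil list. Of 10 neutrophil genes 6 had a bait in each. The HSPC list holds 12186 baits and the neutrophil list 6746, so such counts also follow list size. Of 7 erythroid genes 6 had a bait in the HSPC list and 4 in the neutrophil list. These counts therefore do not check the cell types.

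The Meis1 promoter was highest in DM cells and lowest in WT cells at its contacts with the neighbouring lncRNA gene 8430419K02Rik and at a distant contact with Etaa1. All 5 listed contacts ran from the promoter towards lower coordinates, across or beyond the body of Meis1. The strongest was with a fragment inside 8430419K02Rik, 148 kb away at chr11:18869090-18873310, and scored 12 and 9.80 in DM, 8.87 and 8.22 in Flt3-ITD, 7.67 and 7.33 in Npm1c, and 5.18 and 3.49 in WT HSPCs. No library of any genotype overlapped the next genotype in this order, DM above Flt3-ITD above Npm1c above WT. By limma on log2(score + 1), the DM difference from WT was 1.17 (SE 0.31, adjusted p = 0.122), the Flt3-ITD difference 0.86 (SE 0.31, adjusted p = 0.289) and the Npm1c difference 0.69 (SE 0.31, adjusted p = 0.419), none past 0.05 after adjustment over 88421 contacts.

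The next fragment of 8430419K02Rik, 146 kb from the promoter, scored 11.5 and 7.86 in DM, 12.3 and 3.23 in Flt3-ITD, 7.34 and 6.79 in Npm1c, and 3.68 and 0.879 in WT HSPCs. A neighbour of it at 145 kb scored 6.46 and 10.5 in DM, 7.84 and 7.43 in Flt3-ITD, 5.13 and 6.45 in Npm1c, and 5.49 and 2.34 in WT HSPCs. At both fragments the DM libraries lay above both WT libraries, while a Flt3-ITD library at 146 kb and an Npm1c library at 145 kb lay below a WT library. The fragment with the 3′ end of Meis1 itself, 136 kb from the promoter, scored 5.43 and 6.08 in DM, 6.39 and 5.97 in Flt3-ITD, 3.55 and 4.79 in Npm1c, and 2.18 and 1.33 in WT HSPCs. At this end-to-end contact of the gene all 6 mutant libraries were above both WT libraries; the differences from WT were 1.31 in DM (SE 0.32, limma adjusted p = 0.105), 1.40 in Flt3-ITD (SE 0.32, adjusted p = 0.13) and 0.92 in Npm1c cells (SE 0.32, adjusted p = 0.317).

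Etaa1, which encodes an activator of the replication checkpoint kinase ATR, lies 1065 kb from the Meis1 promoter. Their contact scored 11.4 and 6.38 in DM, 0.786 and 10.2 in Flt3-ITD, 2.02 and 2.80 in Npm1c, and 0.896 and 0 in WT HSPCs. The DM libraries were both high, the Npm1c and WT libraries all low, and the Flt3-ITD libraries far apart. DM alone had brought this contact into the list, so a high DM score was required of it. Listed from the Etaa1 bait, the same pair of fragments scored 8.66 and 5.08 in DM, 0.478 and 10.8 in Flt3-ITD, 1.96 and 3.43 in Npm1c, and 0.988 and 0 in WT HSPCs. Both views share the same ligation products and are not independent. The DM difference from WT was 2.80 (SE 0.78, limma adjusted p = 0.13) from Meis1 and 2.44 (SE 0.87, adjusted p = 0.189) from Etaa1.

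**Figure D2:**
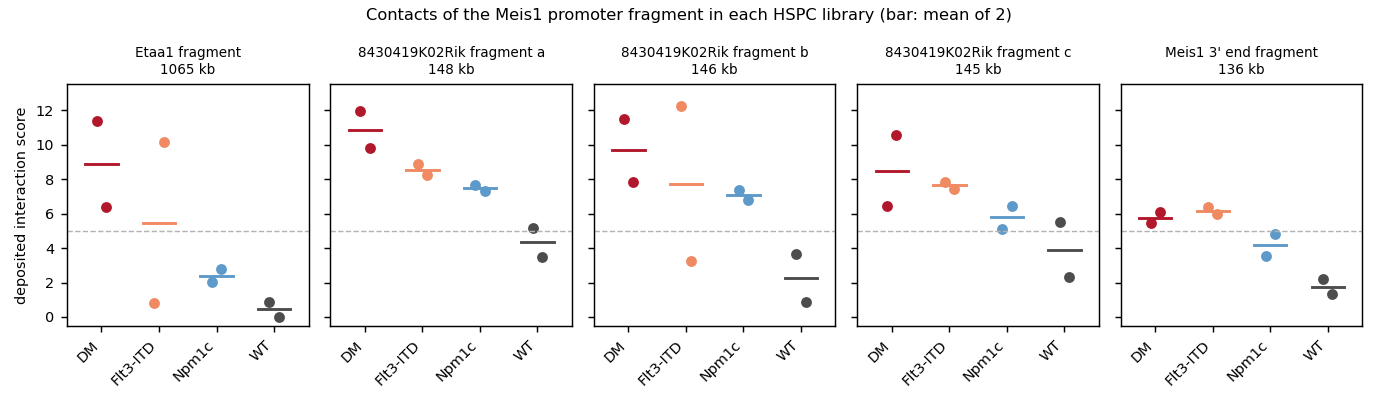
Deposited interaction score (y axis) of the 5 contacts of the Meis1 promoter fragment in each library of DM, Flt3-ITD, Npm1c and WT HSPCs (x axis); points are libraries, bars their means, and the dashed line is a score of 5. DM points lie above WT points in all 5 panels, and the Flt3-ITD points are far apart in the Etaa1 panel, at 0.786 and 10.2.

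Contacts of the HoxA baits were long. Of the 42 HoxA contacts, 36 spanned over 500 kb (85.7%) and 20 over 1000 kb (47.6%), with a median of 869 kb. Over all contacts within a chromosome, 14.4% spanned over 500 kb and 5.12% over 1000 kb, with a median of 218 kb. On the lower-coordinate side, towards Skap2, lay 38 of the 42 partners, and the other 4 belonged to the Hoxa11 and Hoxa13 baits. The 36 HoxA contacts over 500 kb reached 5 in both libraries in 61.1% of cases in DM, 38.9% in Flt3-ITD, 58.3% in Npm1c and 16.7% in WT HSPCs. Among all listed contacts over 500 kb the shares were 41.2% in DM, 47.3% in Flt3-ITD, 33.5% in Npm1c and 20.8% in WT HSPCs. Long contacts as a whole were thus least often at 5 in WT cells.

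The Hoxa3/Hoxa7 bait had 23 of the 42 contacts, all on the Skap2 side and 340 to 1049 kb away. They fell on Skap2 (3), on Snx10 and its flanks (10), on Hnrnpa2b1 and Cbx3 (2) and on an interval about 1 Mb away (8). Both libraries reached 5 at 15 of the 23 in DM, 8 in Flt3-ITD, 12 in Npm1c and 5 in WT HSPCs. Snx10 encodes a sorting nexin of endosomes, Skap2 an adaptor of Src-family kinase signalling, Cbx3 a heterochromatin protein of the HP1 family and Hnrnpa2b1 an RNA-binding protein.

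With a fragment inside Snx10, 629 kb from the bait, the score was 12.2 and 15.0 in DM, 8.56 and 8.90 in Flt3-ITD, 9.36 and 11.1 in Npm1c, and 14.3 and 5.73 in WT HSPCs. The fragment next to it, at 627 kb and holding an end of Snx10, scored 12.2 and 11.2 in DM, 13.3 and 10.8 in Flt3-ITD, 11.4 and 8.87 in Npm1c, and 10.5 and 3.38 in WT HSPCs. The fragment beyond, at 625 kb, scored 7.58 and 8.34 in DM, 7.09 and 9.08 in Flt3-ITD, 10.4 and 8.83 in Npm1c, and 10.0 and 9.72 in WT HSPCs. These 3 contacts averaged above 5 in every genotype, WT included, and at 625 kb both WT libraries lay above both DM libraries. The only contact of this bait that WT alone brought into the list, 611 kb away, scored 6.66 and 4.79 in DM, 2.49 and 12.2 in Flt3-ITD, 8.47 and 1.70 in Npm1c, and 8.27 and 7.29 in WT HSPCs.

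Closer to Nfe2l3 the same bait had 3 contacts at which DM cells stood apart. With the other end of Snx10, 693 kb away, the score was 8.37 and 6.38 in DM, 4.08 and 1.09 in Flt3-ITD, 4.77 and 3.32 in Npm1c, and 1.81 and 0.870 in WT HSPCs. The Cbx3 and Hnrnpa2b1 fragment, 745 kb away, scored 8.70 and 9.06 in DM, 0 and 1.88 in Flt3-ITD, 0.872 and 4.87 in Npm1c, and 3.90 and 1.40 in WT HSPCs. A fragment inside Hnrnpa2b1 at 755 kb scored 7.03 and 7.73 in DM, 0.910 and 2.37 in Flt3-ITD, 2.85 and 6.33 in Npm1c, and 0.112 and 3.17 in WT HSPCs. At these 3 fragments both DM libraries lay above all 6 other libraries. All 3 were listed through DM alone, so a high DM score was required of them and their order is a description. Between them the groups overlapped. The fragment at 702 kb, also listed through DM alone, scored 12.8 and 7.34 in DM, 4.19 and 8.30 in Flt3-ITD, 2.72 and 3.25 in Npm1c, and 5.50 and 0 in WT HSPCs. The fragment at 710 kb, listed through Npm1c alone, scored 6.65 and 3.00 in DM, 4.23 and 6.49 in Flt3-ITD, 5.50 and 5.97 in Npm1c, and 4.59 and 1.36 in WT HSPCs.

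The pairs with the Snx10 end and with Cbx3 and Hnrnpa2b1 were also listed from the partners' own baits, which share the same ligation products. From the Cbx3 and Hnrnpa2b1 bait the score was 13.1 and 13.8 in DM, 1.79 and 5.07 in Flt3-ITD, 2.79 and 10.9 in Npm1c, and 6.86 and 3.97 in WT HSPCs. From the Snx10 bait it was 12.5 and 9.61 in DM, 9.24 and 3.00 in Flt3-ITD, 6.95 and 5.85 in Npm1c, and 3.38 and 2.20 in WT HSPCs. Both DM libraries were again above the 6 others. From the Cbx3 and Hnrnpa2b1 bait the pair was listed through DM alone, and from the Snx10 bait through DM and Npm1c. The listing thus favoured high DM scores here too.

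Inside Skap2 the contact 350 kb away, a fragment of 659 bp at chr6:51867106-51867764, came closest to the threshold. It scored 5.01 and 7.12 in DM, 4.62 and 7.22 in Flt3-ITD, 3.59 and 3.03 in Npm1c, and 0.569 and 0.779 in WT HSPCs. All 6 mutant libraries were above both WT libraries. The difference from WT was 2.06 in DM (SE 0.34, limma adjusted p = 0.0503) and 2.02 in Flt3-ITD cells (SE 0.34, adjusted p = 0.0537). Both passed 0.05 with a pseudocount of 0.1 or an inverse hyperbolic sine in place of log2(score + 1). DM alone had brought this contact into the list, so a high DM score was required of it. The 2 other Skap2 fragments, at 347 and 340 kb, scored between 2.96 and 9.11 across the 8 libraries, with the highest values in Npm1c cells at 347 kb.

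**Figure D3:**
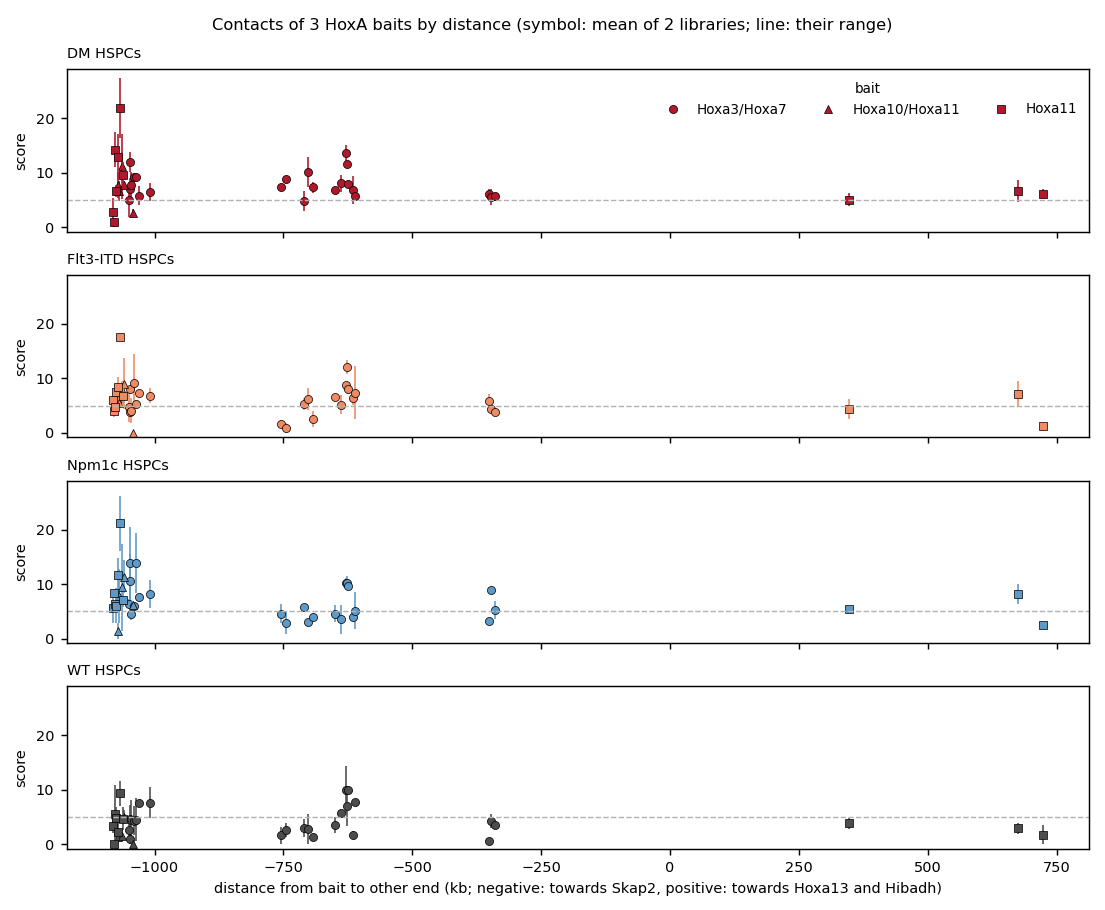
Deposited interaction score (y axis) of each contact of the Hoxa3/Hoxa7, Hoxa10/Hoxa11 and Hoxa11 baits against the distance in kb from the bait to the other end (x axis), with a row each for DM, Flt3-ITD, Npm1c and WT HSPCs; symbols are means of 2 libraries, lines their range, the dashed line a score of 5. Contacts gather near 1 Mb, near Snx10 and in Skap2, and the highest mean, 21.9, is that of the Hoxa11 bait in DM cells.

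About 1 Mb away the Hoxa3/Hoxa7 bait had contacts of several patterns. A fragment at 1047 kb, chr6:51170426-51171571, scored 10.1 and 13.8 in DM, 7.73 and 8.55 in Flt3-ITD, 5.82 and 15.5 in Npm1c, and 2.0 and 7.25 in WT HSPCs. Its neighbour, chr6:51170011-51170249, scored 4.91 and 9.02 in DM, 2.90 and 4.63 in Flt3-ITD, 7.07 and 20.5 in Npm1c, and 1.90 and 0 in WT HSPCs. At the neighbour all 6 mutant libraries were above both WT libraries, and the Npm1c libraries were far apart. The fragment at 1040 kb scored 8.88 and 9.50 in DM, 3.82 and 14.5 in Flt3-ITD, 5.79 and 6.28 in Npm1c, and 7.01 and 1.61 in WT HSPCs. At 2 other fragments the WT libraries were not lower and the groups overlapped. The fragment at 1031 kb scored 4.06 and 7.62 in DM, 7.45 and 7.11 in Flt3-ITD, 8.25 and 6.96 in Npm1c, and 8.07 and 7.15 in WT HSPCs. The fragment at 1009 kb scored 8.24 and 4.75 in DM, 5.44 and 8.26 in Flt3-ITD, 5.68 and 10.7 in Npm1c, and 10.4 and 4.80 in WT HSPCs.

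The interval about 1 Mb away, chr6:51167210-51212855, took 21 of the 42 HoxA contacts, from 4 baits and on 10 fragments. It is 45.6 kb long and overlaps no protein-coding gene of the RefSeq table; the lncRNA gene Gm32403 lies in it. Both libraries reached 5 at 12 of the 21 contacts in DM, 9 in Flt3-ITD, 15 in Npm1c and 2 in WT HSPCs. The median score over the 21 was 7.83 and 8.17 in DM, 5.44 and 6.35 in Flt3-ITD, 5.82 and 8.51 in Npm1c, and 5.11 and 1.61 in WT HSPCs. The interval was bounded by the outermost HoxA partners, so HoxA contacts had to be frequent in it. Of the 28 listed HSPC contacts that ended there, 27 came from 7 baits inside the HoxA cluster and 1 from Skap2; no listed neutrophil contact ended there.

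The fragment chr6:51180767-51183201 was shared by 4 baits. With the Hoxa11 bait it scored 16.4 and 27.5 in DM, 17.8 and 17.3 in Flt3-ITD, 16.1 and 26.2 in Npm1c, and 11.6 and 7.08 in WT HSPCs. This was the highest mean of the 47 contacts in each genotype but WT, and all 6 mutant libraries were above both WT libraries. With the Hoxa10/Hoxa11 bait it scored 7.12 and 8.43 in DM, 13.7 and 4.40 in Flt3-ITD, 8.33 and 14.4 in Npm1c, and 6.33 and 3.73 in WT HSPCs. With the Hoxa3/Hoxa7 bait it scored 8.91 and 9.48 in DM, 5.72 and 4.94 in Flt3-ITD, 8.41 and 19.3 in Npm1c, and 8.43 and 0.628 in WT HSPCs. The Hoxa2 bait, which had this contact alone, scored 0 and 2.32 in DM, 4.30 and 3.8 in Flt3-ITD, 5.72 and 6.20 in Npm1c, and 5.11 and 0.397 in WT HSPCs. At Hoxa2 both DM libraries were below all 4 single-mutant libraries; with the Hoxa11 bait the mutant genotypes overlapped.

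All 5 contacts of the Hoxa10/Hoxa11 bait lay in that interval. At 1064 kb it scored 17.2 and 5.26 in DM, 6.47 and 9.49 in Flt3-ITD, 1.40 and 17.4 in Npm1c, and 1.77 and 1.12 in WT HSPCs. At 1070 kb it scored 5.48 and 10.2 in DM, 4.14 and 8.68 in Flt3-ITD, 0 and 2.84 in Npm1c, and 1.67 and 1.13 in WT HSPCs. DM and Flt3-ITD libraries were above both WT libraries at both distances. The Npm1c libraries lay on either side of WT at 1070 kb, and at 1064 kb one lay between the WT libraries and the other above them. At 1069 kb it scored 8.60 and 4.87 in DM, 5.02 and 6.17 in Flt3-ITD, 2.80 and 12.8 in Npm1c, and 4.62 and 4.99 in WT HSPCs, with overlapping DM and WT libraries.

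The Hoxa11 bait had 10 contacts, 7 of them in that interval. Its contact 1077 kb away scored 11.1 and 17.5 in DM, 4.85 and 4.85 in Flt3-ITD, 5.91 and 6.63 in Npm1c, and 10.9 and 0 in WT HSPCs. Its contact 1071 kb away scored 8.78 and 17.2 in DM, 10.2 and 6.72 in Flt3-ITD, 8.49 and 14.7 in Npm1c, and 0.479 and 4.00 in WT HSPCs. The contact at 1077 kb was high in DM cells and split between the WT libraries, and the contact at 1071 kb was above both WT libraries in all 6 mutant libraries. Between them, at 1076 kb, the score was 7.83 and 5.62 in DM, 9.02 and 5.99 in Flt3-ITD, 2.83 and 9.28 in Npm1c, and 6.86 and 2.61 in WT HSPCs, and the groups overlapped. On the Hoxa13 side the Hoxa11 bait reached Hibadh, the gene of a mitochondrial dehydrogenase, and Jazf1, a zinc finger gene. Another fragment in Jazf1, at 675 kb, scored 4.71 and 8.76 in DM, 9.55 and 4.89 in Flt3-ITD, 10.0 and 6.41 in Npm1c, and 1.92 and 3.95 in WT HSPCs, with all 6 mutant libraries above both WT libraries; Npm1c alone had brought it into the list. The fragment in Jazf1 at 724 kb, listed through DM alone, scored 5.31 and 7.04 in DM, 1.33 and 1.26 in Flt3-ITD, 1.86 and 3.07 in Npm1c, and 3.47 and 0 in WT HSPCs.

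Within the interval lay the 2 contacts called at an adjusted p under 0.05. The Hoxa10/Hoxa11 bait and a fragment of 298 bp, 1042 kb away at chr6:51199258-51199555, scored 1.95 and 3.34 in DM, 0 and 0 in Flt3-ITD, 5.31 and 6.95 in Npm1c, and 0 and 0 in WT HSPCs. The scores of 0 in Flt3-ITD and WT cells lie at the floor of the score and added no spread to the fit. This contact rose in Npm1c against WT cells, by 2.83 on the log2(score + 1) scale (SE 0.33, limma adjusted p = 0.016). It was the only 1 of 47 called for that comparison, against 0.225% of all contacts called higher, and Npm1c was the group that brought it into the list. Leaving out any of the 4 libraries compared gave a difference of 2.66 to 2.99 with an adjusted p of 0.0762 to 0.0943; over all contacts limma called 0 in these smaller designs, with 8364 to 11824 at an unadjusted p under 0.05, against 199 called higher with all libraries.

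The Hoxa11 bait and a fragment of 176 bp at chr6:51170250-51170425, 1078 kb away, scored 1.80 and 0 in DM, 2.89 and 5.35 in Flt3-ITD, 8.68 and 7.99 in Npm1c, and 0 and 0 in WT HSPCs. Both single mutants were above DM and WT cells in every library. The WT scores of 0 lie at the floor of the score and added no spread to the fit. The interaction, which asks whether DM departs from the sum of the single-mutant differences, was -4.79 on the log2(score + 1) scale (SE 0.71, limma adjusted p = 0.0382). It was the only interaction called among the 47 contacts, against 0.42% of all contacts called lower. Npm1c alone had brought this contact into the list, so a high Npm1c score was required of it. Without any 1 of the 8 libraries the interaction ran from -5.53 to -4.05, with an adjusted p from 0.0812 to 0.154; over all contacts these smaller designs called 0 to 69 negative interactions, against 371 with all 8 libraries.

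The remaining baits had few contacts. Hoxa5 contacted a fragment 612 kb away beside Snx10, which scored 1.42 and 2.76 in DM, 4.49 and 4.11 in Flt3-ITD, 6.83 and 5.09 in Npm1c, and 1.33 and 0 in WT HSPCs. Both DM libraries were below all 4 single-mutant libraries and above both WT libraries. Hoxa13, the gene at the far end of the cluster, contacted the Hoxa11 promoter fragment 15.0 kb away with scores of 4.18 and 6.51 in DM, 5.14 and 4.18 in Flt3-ITD, 5.51 and 4.17 in Npm1c, and 6.11 and 7.87 in WT HSPCs. It was the only listed contact within the HoxA cluster among these baits, and both libraries reached 5 in WT cells alone. The Hoxa13 contact with Hibadh, 312 kb away, scored 2.43 and 5.94 in DM, 7.49 and 5.72 in Flt3-ITD, 2.85 and 3.97 in Npm1c, and 0.578 and 1.89 in WT HSPCs.

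Counted over the 47 contacts, both DM libraries lay above both WT libraries at 31 and below at 2, against 32.6% of all contacts higher and 19.4% lower. Both Flt3-ITD libraries lay above both WT libraries at 19 and below at 2, against 34% of all contacts higher and 14.8% lower. Both Npm1c libraries lay above both WT libraries at 22 and below at 1, against 26.3% of all contacts higher and 16.7% lower. Of the 34 contacts that Flt3-ITD or Npm1c had brought into the list, 21 were higher in DM than in WT libraries, against 25% of all such contacts. For Flt3-ITD against WT the count was 15 of the 41 brought in by DM or Npm1c, against 31%, and for Npm1c it was 12 of the 35 brought in by DM or Flt3-ITD, against 22.7%. The DM share stood furthest above its background. Set against WT replicate 1 alone, both DM libraries were higher at 32 contacts (68.1%, against 42.7% of all contacts), both Flt3-ITD libraries at 20 (42.6%, against 46.1%) and both Npm1c libraries at 24 (51.1%, against 37.9%). The Flt3-ITD share was thus at its background once WT replicate 2 was set aside. The shares against WT replicate 1 alone used all contacts, whichever group had brought them in. WT had brought in 14.9% of the 47 contacts and 34.9% of all listed contacts. The listing itself thus favoured mutant scores above WT among the 47, so these shares are descriptions.

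The median difference from WT over the 47 contacts was 1.00 in DM, 0.78 in Flt3-ITD and 0.85 in Npm1c cells on the log2(score + 1) scale, and over all 88421 contacts it was 0.16, 0.23 and 0.12 in the same order. Without WT replicate 2 the medians over the 47 were 0.43 in DM, 0.17 in Flt3-ITD and 0.37 in Npm1c cells, and over all contacts 0.08, 0.14 and 0.02. The size of the difference thus rests in large part on WT replicate 2. Its sign stayed positive, but few of the 47 contacts were listed through WT, so the listing itself favoured a positive sign. In Flt3-ITD cells the median without WT replicate 2, 0.17, was close to the 0.14 of all contacts. At an unadjusted p under 0.05, 19 of the 47 were higher in DM, 9 in Flt3-ITD and 13 in Npm1c than in WT cells and 0 were lower in any; over all contacts 19.5%, 14.2% and 12.5% passed in either direction. After adjustment 0 of 47 were called in DM, against 0.576% of all contacts called in either direction, and 0 in Flt3-ITD, against 0.568%.

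Averaged over its contacts in log2(score + 1), the Meis1 bait stood at 3.24 ± 0.10 in DM, 2.85 ± 0.11 in Flt3-ITD, 2.59 ± 0.11 in Npm1c and 1.62 ± 0.58 in WT HSPCs (SD, n = 2 each). The Hoxa3/Hoxa7 bait stood at 3.06 ± 0.13 in DM, 2.60 ± 0.34 in Flt3-ITD, 2.77 ± 0.17 in Npm1c and 2.11 ± 0.56 in WT HSPCs. The Hoxa11 bait stood at 2.89 ± 0.19 in DM, 2.76 ± 0.20 in Flt3-ITD, 3.00 ± 0.32 in Npm1c and 1.86 ± 0.54 in WT HSPCs. For Meis1 the order DM, Flt3-ITD, Npm1c, WT held in every library; for Hoxa3/Hoxa7 both DM libraries were above all others, where 7 of the 23 contacts were listed through DM alone and so had to be high in it; for Hoxa11 the mutants overlapped each other and all lay above WT. The Hoxa10/Hoxa11 bait stood at 2.88 ± 0.10 in DM, 2.37 ± 0.03 in Flt3-ITD, 2.59 ± 1.10 in Npm1c and 1.53 ± 0.18 in WT HSPCs. Its Npm1c libraries were far apart, and all 6 mutant libraries were above both WT libraries. These means used all listed contacts, few of which reached 5 in both WT libraries. The counts in WT were 0 of 5 for Meis1, 5 of 23 for Hoxa3/Hoxa7, 1 of 10 for Hoxa11 and 0 of 5 for Hoxa10/Hoxa11. Mutant means above WT were thus favoured by the listing. For Meis1 all 5 contacts reached 5 in both DM libraries.

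**Figure D4:**
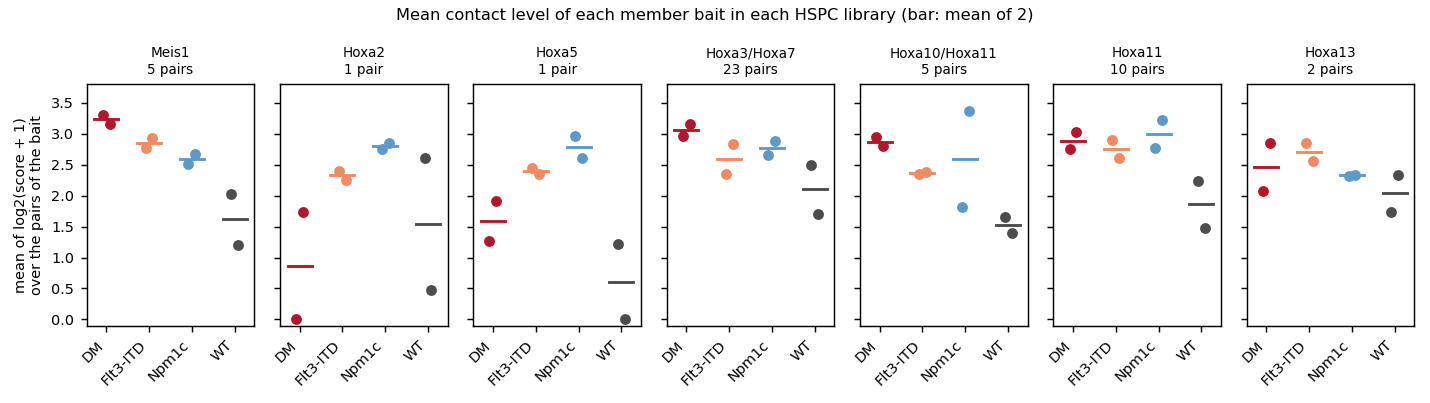
Mean of log2(score + 1) over the listed contacts of each bait (y axis) in each library of DM, Flt3-ITD, Npm1c and WT HSPCs (x axis); points are libraries and bars their means. DM libraries are highest at Meis1 and Hoxa3/Hoxa7, and at Hoxa2 and Hoxa5 they lie below the single mutants.

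Bait means were tested over contacts listed through a genotype that the comparison does not use, for baits with at least 10 of them. The Hoxa3/Hoxa7 bait was the only HoxA or Meis1 bait with enough contacts against WT. Its difference was 0.76 in DM (SE 0.26, limma adjusted p = 0.0898), 0.49 in Flt3-ITD (SE 0.24, adjusted p = 0.16) and 0.56 in Npm1c cells (SE 0.24, adjusted p = 0.414), none past the threshold. Among all baits tested, 6.36% were called higher in DM, 7.21% in Flt3-ITD and 0.102% in Npm1c cells. These shares depend on the scaling: with quantile normalization 82 of 1841 baits were called higher and 133 lower in DM cells, against 117 and 22 without it, and 5 of 1858 higher and 2 lower in Flt3-ITD cells, against 134 and 0. Without WT replicate 1 the bait was called higher in DM cells, by 1.24 (adjusted p = 0.00797), and in Flt3-ITD cells, by 0.90 (adjusted p = 0.0133); without WT replicate 2 the differences were 0.28 (adjusted p = 0.587) and 0.07 (adjusted p = 0.892).

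With every bait admitted that had at least 1 such contact, a setting chosen after seeing the data, the Meis1 difference from WT was 1.32 in DM over 4 contacts (SE 0.30, limma adjusted p = 0.131), 1.24 in Flt3-ITD over 5 (SE 0.28, adjusted p = 0.186) and 0.98 in Npm1c over 5 (SE 0.28, adjusted p = 0.341). The Hoxa11 difference was 0.95 in DM (SE 0.28, adjusted p = 0.179), 0.91 in Flt3-ITD (SE 0.29, adjusted p = 0.259) and 0.92 in Npm1c cells (SE 0.43, adjusted p = 0.532). Without WT replicate 2 the Meis1 difference was 0.93 in DM, 0.83 in Flt3-ITD and 0.57 in Npm1c cells, and the Hoxa11 difference 0.65 in DM, 0.53 in Flt3-ITD and 0.37 in Npm1c cells. No HoxA or Meis1 bait was called there; of all baits, 0% were called in DM and Npm1c and 0.0554% in Flt3-ITD cells.

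DM cells were also set against each single mutant. Both DM libraries lay above both Npm1c libraries at 17 of the 47 contacts and below at 6, against 28.1% and 23.9% of all contacts. All 5 Meis1 contacts were among the 17. Both DM libraries lay above both Flt3-ITD libraries at 13 and below at 4, against 22.6% and 27.1% of all contacts; 9 of the 13 belonged to the Hoxa3/Hoxa7 bait. Of the 21 contacts listed through Flt3-ITD or WT, 6 were higher in DM than Npm1c, against 19.3% of all such contacts, and of the 29 listed through Npm1c or WT, 7 were higher in DM than Flt3-ITD, against 12.7%. At an unadjusted p under 0.05, 2 contacts were higher and 4 lower in DM than Npm1c, and 5 were higher and 1 lower in DM than Flt3-ITD cells, against 17.7% and 12% of all contacts in either direction; limma called 0 in either comparison after adjustment, against 0.561% and 0.458% of all contacts. The Hoxa3/Hoxa7 bait differed by 0.28 from Npm1c (SE 0.19, adjusted p = 0.454) and by 0.21 from Flt3-ITD cells (SE 0.24, adjusted p = 0.654), and 0.868% and 4.3% of all baits were called.

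The median interaction over the 47 contacts was -0.39, against -0.18 over all contacts. At an unadjusted p under 0.05 it was positive at 1 contact and negative at 6, against 14.4% of all contacts in either direction. The bait-level interaction was -1.0 for Hoxa11 (SE 0.34, limma adjusted p = 0.0989) and -0.20 for Hoxa3/Hoxa7 (SE 0.35, adjusted p = 0.763), with 7.48% of all baits called in either direction. Leaving out WT replicate 1 moved the median interaction to -0.93, and leaving out WT replicate 2 moved it to -0.15. Across left-out libraries the Hoxa11 value ran from -1.38 (WT replicate 1) to -0.62 (WT replicate 2), with -1.23 for Npm1c replicate 1. The median and both bait values used all listed contacts, so they are not free of the listing. Of the 10 Hoxa11 contacts, 3 were listed through Npm1c alone, 1 through Flt3-ITD alone and 1 through DM alone. A contact listed through a single mutant had to be high in it, which favours a negative interaction.

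Fragments of these genes were also listed as partners of other baits, 11 times in HSPCs and 2 times in neutrophils. The strongest was the contact of Tax1bp1, the gene of an autophagy adaptor, with the Hoxa11 promoter fragment 465 kb away. It scored 50.4 and 16.8 in DM, 26.7 and 23.1 in Flt3-ITD and 16.3 and 15.3 in Npm1c HSPCs, 5.28 and 5.74 in WT neutrophils, and 11 and 13.9 in WT HSPCs. The 6 mutant libraries were above the WT HSPC libraries, and the neutrophil libraries were below them. The DM difference from WT was 1.18 (SE 0.48, limma adjusted p = 0.236). WT neutrophils differed from WT HSPCs by -1.04 (SE 0.30, adjusted p = 0.144), where 0.206% of 14051 shared contacts were called.

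Nfe2l3, a transcription factor gene beyond Snx10, went against the general order. Its contact with the Hoxa3/Hoxa7 fragment, 780 kb away, scored 1.25 and 0.993 in DM, 9.49 and 6.61 in Flt3-ITD, 0 and 3.64 in Npm1c, and 7.12 and 9.67 in WT HSPCs. DM and Npm1c libraries were all below Flt3-ITD and WT libraries. Only Flt3-ITD and WT cells had brought this contact into the list, so the listing favoured this split and it is a description. The difference from WT was -2.13 in DM (SE 0.64, limma adjusted p = 0.145) and -2.11 in Npm1c cells (SE 0.64, adjusted p = 0.262). In WT neutrophils Nfe2l3 was listed with the Hoxa11 fragment, 811 kb away, at 7.78 and 5.93. From Igf2bp3, the gene of an RNA-binding protein 3032 kb away, the Hoxa11 fragment scored 5.58 and 6.22 in DM, 9.40 and 0 in Flt3-ITD, 0 and 5.76 in Npm1c, and 0 and 0 in WT HSPCs. DM alone had brought the Igf2bp3 contact into the list, so a high DM score was required of it.

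**Figure D5:**
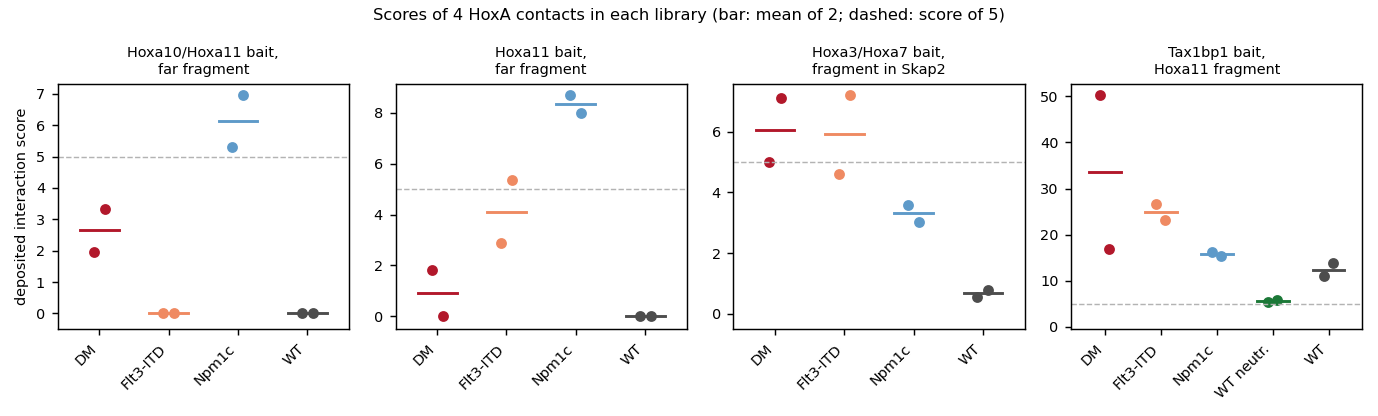
Deposited interaction score (y axis, a scale of its own in each panel) of 4 HoxA contacts in each library of DM, Flt3-ITD, Npm1c and WT HSPCs and, for the Tax1bp1 contact, of WT neutrophils (x axis); points are libraries, bars their means and the dashed line a score of 5. The far fragments of the Hoxa10/Hoxa11 and Hoxa11 baits are highest in Npm1c cells, and the Tax1bp1 contact is lowest in neutrophils at 5.28 and 5.74.

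None of the 7 baits had a contact in the WT neutrophil list, which holds contacts at 5 or more in both neutrophil libraries. Of all baits in the HSPC list 48.5% had one, and of baits with at least 10 or at least 20 HSPC contacts 78.1% and 86.5% had one. The Hoxa3/Hoxa7 bait, with 23 contacts, and the Hoxa11 bait, with 10, were therefore among the minority of such baits with none. A score below 5 in neutrophils is not listed, so no neutrophil level and no test could be had for the 47 contacts. The only neutrophil contacts listed with any HoxA fragment were the 2 from Tax1bp1 and Nfe2l3.

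Baits of the same loci that hold no start or end of a named gene had patterns of their own. The Hoxa6 fragment next to the Hoxa3/Hoxa7 bait had 7 contacts, of which 4 reached 5 in both libraries in DM, 0 in Flt3-ITD, 1 in Npm1c and 2 in WT HSPCs. The fragment with the microRNA gene Mir196b had 4, of which 1 did so in DM, 3 in Flt3-ITD, 2 in Npm1c and 1 in WT HSPCs. Evx1, a homeobox gene beyond Hoxa13, had 3 contacts, all in Hibadh, and all 3 reached 5 in both libraries of DM and of no other genotype. A second bait inside Meis1 had 4 contacts, among them the Etaa1 fragment, listed through DM alone, which scored 8.29 and 5.78 in DM, 0.0643 and 0.370 in Flt3-ITD, 0 and 5.51 in Npm1c, and 0.418 and 2.54 in WT HSPCs. Both DM libraries were above all 6 others there, as at none of its other contacts. Its contact with the 3′ end of Meis1, listed through Npm1c alone, scored 4.29 and 4.18 in DM, 4.74 and 5.50 in Flt3-ITD, 5.50 and 5.74 in Npm1c, and 5.15 and 3.85 in WT HSPCs. With the 8430419K02Rik fragment at chr11:18869090-18873310 it scored 4.73 and 9.44 in DM, 5.68 and 6.85 in Flt3-ITD, 3.17 and 6.49 in Npm1c, and 4.45 and 5.70 in WT HSPCs. At both contacts DM and WT libraries overlapped. Another bait inside Meis1 had 1 contact, with the same 3′ end, listed through Flt3-ITD alone; it scored 2.36 and 1.78 in DM, 6.68 and 6.85 in Flt3-ITD, 1.91 and 3.73 in Npm1c, and 1.77 and 2.17 in WT HSPCs.

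Genes related to HoxA and Meis1 were looked up by their own baits, so a rise here is one of mean contact score and not of expression. The lists were chosen with earlier results of these data known, so their shares are descriptions. Of 12 genes known as targets of Hoxa9 and Meis1 in leukaemia models, 3 could be tested in Flt3-ITD against WT cells and all 3 rose, against 7.21% of baits called higher: Myc, a growth regulator, by 1.54 (SE 0.23, limma adjusted p = 0.00378), Sox4, a transcription factor, by 0.84 (SE 0.18, adjusted p = 0.02), and Bcl2, a survival factor, by 0.56 (SE 0.16, adjusted p = 0.0495). In DM cells 2 of 4 tested baits rose, against 6.36%: that of Myc by 0.99 (SE 0.26, limma adjusted p = 0.0365) and that of Bcl2 by 0.61 (SE 0.16, adjusted p = 0.0365). The Flt3-ITD and DM comparisons share their WT libraries. With quantile normalization 5 of 1858 baits were called higher in Flt3-ITD cells, and these targets were not looked up under that setting. With at least 1 contact a bait, 0 of 11 baits of these targets were called in DM and 0 of 11 in Flt3-ITD cells. In Npm1c cells 0 of 2 baits were called, against 0.102% of all baits. Over all listed contacts the interaction was called for 1 of 4 baits, against 7.48% of all baits in either direction. The bait was that of Sox4, at -1.33 (SE 0.25, limma adjusted p = 0.0122). That value includes contacts listed through the compared groups, so it is not free of the listing. Among genes of the other Hox clusters 1 of 2 tested baits rose in DM cells, that of Hoxc8, by 0.87 (SE 0.22, adjusted p = 0.0334); 0 of 5 were called in Flt3-ITD and 0 of 5 in Npm1c cells, and with at least 1 contact a bait 0 of 18 in DM cells. Of 20 regulators of Hox genes, 2 baits could be tested against WT and 0 were called in any mutant; no bait of the 8 TALE class genes, or of the neighbours of HoxA or of Meis1, had enough contacts.

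By the pattern over the 8 HSPC libraries, the baits most like Hoxa3/Hoxa7 among 2258 on other chromosomes or over 2 Mb away were those of Dhx9 (Pearson r = 0.97), Gtpbp8 (r = 0.96) and Tubb4b (r = 0.95). Those most like Hoxa11 were Dync1h1 (r = 0.98), Foxo3 (r = 0.98) and Cep72 (r = 0.97). In 1% of candidates r was above 0.90 for Hoxa3/Hoxa7 and 0.91 for Hoxa11. All baits share the same 8 libraries, so these values are descriptions.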

How the data were processed

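Per the labels, lineage-negative bone marrow cells and neutrophils were fixed in 1% formaldehyde for 10 minutes, and ligation products of HindIII fragments were enriched with 39684 probes. The authors deposited 1 interaction score per contact and library on build mm10, with distances; the interaction caller, its background model and read counts are not given in the sources used here, so depth is unknown and no counting interval could be given. Every HSPC contact scored 5 or more in both libraries of a genotype, and every neutrophil contact in both neutrophil libraries. From the deposited scores, log2(score + 1) was fitted with limma 3.58.1 (R 4.3.3) over the 8 HSPC libraries, without a block, for 88421 contacts on autosomes and X (203 left out), with two-sided p-values adjusted by Benjamini-Hochberg at 0.05. The fits were tested on simulated data.

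A bait mean used contacts brought in by groups outside the comparison, or all contacts for the interaction, and was tested with at least 10 of them. Contacts named were those called, the 3 highest by mean in each genotype and those ending on a listed gene. The Skap2, Jazf1, 755 kb Hnrnpa2b1, 702 kb, 710 kb, 1031 kb, 1009 kb and non-member bait values were picked after their values were seen. The genes and lists were chosen with earlier results of these data known. Where labels do not name separate mice, p-values measure only the spread between libraries. Alternatives covered scaling, pseudocount, left-out libraries, thresholds and a replicate block. Some items are not reported here.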

Additional observations from a re-analysis of the deposited data

Results flagged for a closer look

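At 3 contacts a mutation's difference ran one way in every library on one genetic background and the other way on the other. Between the Hoxa2 bait and the shared fragment at chr6:51180767-51183201, both DM libraries were below both Flt3-ITD libraries while both Npm1c libraries were above both WT libraries, and the interaction was -2.72 (SE 1.05, limma adjusted p = 0.302). Between the Hoxa5 bait and the fragment beside Snx10, each single mutant was above WT and DM was below each single mutant, with an interaction of -2.99 (SE 0.64, adjusted p = 0.114). Between the Hoxa11 bait and the fragment at chr6:51170250-51170425 the same held, with an interaction of -4.79 (SE 0.71, adjusted p = 0.0382), which passed the threshold. All 3 contacts were brought into the list by Npm1c alone, so a high Npm1c score was required of them.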

How the results depend on the processing

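With 2 libraries a group, calls moved by 1 or 2. The Npm1c contact call, 1 as reported, was 0 to 0 across the left-out libraries, and 0 with the contrasted groups only and among contacts brought in by other groups; the interaction contact call, 1 as reported, was 0 to 0 across left-out libraries, 0 with a pseudocount of 0.1 and 0 with a replicate block (adjusted p = 0.0725). Contact calls against WT of 0 became 2 in DM and 1 in Flt3-ITD with a pseudocount of 0.1 or an inverse hyperbolic sine, and DM against Flt3-ITD became 1 with a pseudocount of 0.1. Bait calls also moved across left-out libraries for DM, Flt3-ITD and the interaction. Calls of 0 became 1 for Flt3-ITD with at least 5 contacts. With all listed contacts they became 2 in DM, 1 in Flt3-ITD and 1 in Npm1c, and Meis1 in DM passed at 1.62 (limma adjusted p = 0.0268, any bait size). That setting brings back contacts listed through the compared groups. All 5 Meis1 contacts reached 5 in both DM libraries and 0 did so in WT, so the listing itself favoured a higher DM mean.

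Contacts in both libraries at 3 numbered 35 in Flt3-ITD and 13 in WT; at 7 they numbered 16 in DM, 8 in Flt3-ITD, 11 in Npm1c and 4 in WT; at 10 they numbered 5, 2, 1 and 0 in that order; by the mean at 5 they numbered 31 in Flt3-ITD and 11 in WT. Uncalled bait differences changed sign for Hoxa10/Hoxa11 in Npm1c (-0.30 to 1.56 across left-out libraries), Hoxa2 in Flt3-ITD (-0.28 to 1.85), Hoxa2 in DM (-1.75 to 0.38, with 0.18 without DM replicate 1) and the Hoxa3/Hoxa7 interaction (-0.60 to 0.19, with 0.04 without Flt3-ITD replicate 2, and 0.094 with quantile normalization). The Hoxa3/Hoxa7 difference of DM from Flt3-ITD, 0.21, ran from -0.05 (Flt3-ITD replicate 1 left out) to 0.46 (replicate 2 left out). The cause was not tested. Settings with at least 1 contact a bait, and those against a single WT library, were chosen after seeing the data.

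Deviations of equally numbered libraries correlated between -0.012 and 0.061, so no strong shift shared by number was seen. Whether equally numbered libraries were handled together cannot be told from these values. The replicate block changed no other call. No neutrophil alternative gave a value, since no such contact was listed. The unknown depth and the low WT replicate 2 limit every comparison with WT.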
